A study of Mus musculus with 78 samples.

Results

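Cerebral arteries were followed over 30 days after bilateral carotid artery stenosis (BCAS) in mice that had eaten freely. In BCAS the common carotid arteries are narrowed on both sides, and the brain is left with less blood over weeks. Libraries were taken by their treatment label (BCAS with AL, for ad libitum feeding), which gave 19 of the 78 libraries of the series: 3 on day 1 and 4 each on days 7, 14, 21 and 30. All came from male wild-type (WT) C57Bl6 mice that fed freely for 3 months before surgery. Sham-operated mice with the same sex, strain, genotype and feeding (sham AL, 4 libraries on each of the same 5 days) were used for comparison. The group labels give day 7, while the treatment text lists days 1, 14, 21 and 30 alone. No age or hour of collection was given for the mice. Nothing said that libraries came from separate animals or whether arteries were pooled, so p-values measure only the spread between libraries.

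Arteries of the brain hold a wall of smooth muscle around an endothelial lining, with fibroblasts, pericytes and macrophages outside it. The contractile state of smooth muscle rests on the transcription factor SRF and its cofactor myocardin, which bind CArG boxes and switch on actin, myosin and their regulators. Nitric oxide from the endothelium relaxes these cells through soluble guanylate cyclase and the cGMP-dependent kinase, while entry of calcium contracts them. Heat shock proteins fold damaged or new proteins and are switched on by the factor HSF1, which binds heat shock elements.

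Values are FPKM (fragments per kilobase of gene, scaled to depth), and recovered depth was 15449245 to 23525091 fragments per library. All 5 smooth muscle markers (Acta2, Myh11, Tagln, Cnn1 and Des) and all 5 endothelial markers had at least 1 FPKM in each of the 19 libraries, and the smooth muscle markers summed to 3019 to 7834 FPKM. Summed neuron markers reached at most 9.36 FPKM. Day 1 replicate 2 stood apart in fragments of genes under 300 bases (0.279% of fragments, against 0.057% to 0.10% in the other 18 libraries), as did sham AL day 7 replicates 2 and 4 (0.282% and 0.322%). Tests were run with limma on log2(FPKM + 1) for 15707 genes, folds are on the FPKM + 1 scale and so understate changes of genes with low values, and a gene was said to rise or fall at an adjusted p under 0.05.

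Gene expression moved most between days 7 and 14. Some difference among the 5 days was found for 704 genes (4.48% of those tested, limma F test). From day 7 to day 14, 667 genes rose and 414 fell (6.88% of genes tested, or 4.25% higher and 2.64% lower). Day 7 differed from day 1 for 370 genes (2.36%), 153 higher (0.974%) and 217 lower (1.38%). Day 14 differed from day 1 for 292 (1.86%), 141 higher (0.898%) and 151 lower (0.961%). Fewer genes differed between the later days and the first: 37 genes on day 21 (0.236%, or 0.0637% higher and 0.172% lower) and 44 on day 30 (0.28%, or 0.0828% higher and 0.197% lower). Without the filter on low values these counts were 191 and 252. Against day 7, 37 genes passed on day 21 (0.236%, or 0.204% higher and 0.0318% lower) and 52 on day 30 (0.331%, or 0.274% higher and 0.0573% lower). Against day 14, 4 passed on day 21 (0.0255%, or 0.0127% in each direction) and 42 on day 30 (0.267%, or 0.102% higher and 0.166% lower).

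Groups of libraries without overlap were common at 3 or 4 libraries a day, so absence of overlap is given below as a description. From day 7 to day 14, 7.85% of genes tested were higher and 6.86% lower without overlap. Against day 1 the shares were 6.49% higher and 8.31% lower on day 7, 7.18% and 6.65% on day 14, 4.65% and 5.13% on day 21, and 5% and 5.23% on day 30. Against day 7 they were 4.38% higher and 3.73% lower on day 21, and 4.04% and 3.39% on day 30. Against day 14 they were 2.15% higher and 3.41% lower on day 21, and 3.42% and 4.05% on day 30.

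Days 21 and 30 could barely be told apart: 1 gene passed (0.00637%), a non-coding one, and 563 had an unadjusted p under 0.05. Of the 704 genes, 374 had their lowest mean on day 7 and 344 their highest on day 14, and 282 did both, while 70 did the reverse. Day 1 held the highest mean of 171. The 704 became 363 without day 7 replicate 1. The count for day 14 against day 7 was 458 without day 7 replicate 1 and 651 without day 14 replicate 1. The count for day 7 against day 1 was 138 without day 1 replicate 2, 45 without day 1 replicate 3, 123 without day 7 replicate 1 and 244 without day 7 replicate 2. Day 14 against day 1 gave 192, 193 and 128 without day 1 replicates 1, 2 and 3. The smaller counts also rested on single libraries. Day 21 against day 1 gave 24 and 16 without day 1 replicates 1 and 3, and 21 and 17 without day 21 replicates 2 and 3. Day 30 against day 1 gave 21 without day 1 replicate 2, and 27 and 24 without day 30 replicates 2 and 3. Day 21 against day 7 gave 1 and 24 without day 7 replicates 1 and 2, and 20, 1, 69 and 2 without day 21 replicates 1, 2, 3 and 4. Day 30 against day 7 gave 7, 6 and 9 without day 7 replicates 1, 2 and 3, and 9, 5 and 4 without day 30 replicates 2, 3 and 4. Day 21 against day 14 gave 0 without any of day 14 replicates 1, 2 and 4 and day 21 replicates 1 and 4, and 2 without day 21 replicate 3. Day 30 against day 14 gave 21 and 25 without day 14 replicates 1 and 3, and 25 and 22 without day 30 replicates 3 and 4.

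**Figure D1:**
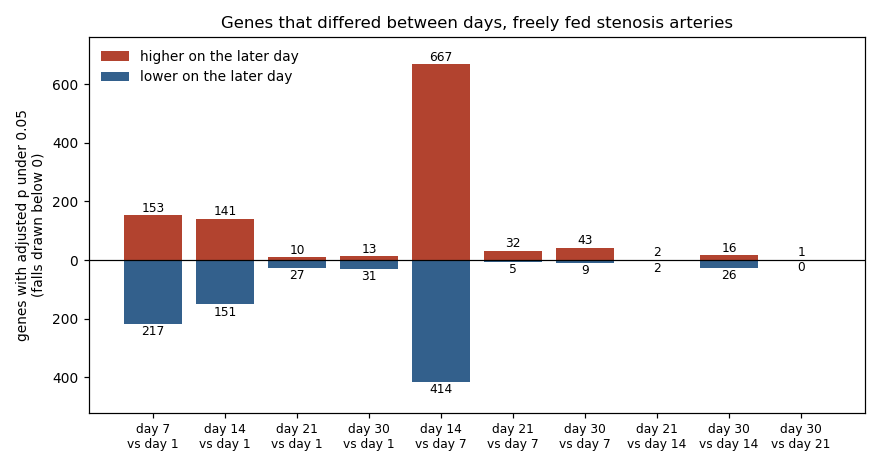
Number of genes that passed an adjusted p of 0.05 (limma) in each pair of days in stenosis arteries under free feeding, with higher and lower genes of the later day drawn apart. The 667 rises and 414 falls from day 7 to day 14 stand above every other pair, and days 21 and 30 differ by 1 gene.

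Genes of the contractile apparatus were low on day 7 and high on day 14. Of 16 contractile smooth muscle genes, 14 rose from day 7 to day 14 (4.25% of genes tested rose), none fell and 2 did not pass. Their median log2 change was 0.64, against 0.01 over all genes tested. From day 1 to day 7, 4 of the 16 fell (1.38% of genes tested fell), with a median of -0.52, against -0.01 over all genes. On day 14 against day 1 only Myocd passed. In bulk tissue, fewer smooth muscle cells and less RNA per cell cannot be told apart. The mean log2 level over contractile smooth muscle genes was 7.19 to 7.39 on day 1, 6.40 to 6.99 on day 7 and 7.37 to 7.46 on day 14, and the days did not overlap between 7 and either neighbour. It was 7.02 to 7.35 on day 21 and 6.96 to 7.41 on day 30. Without day 7 replicate 1, the library at 6.40, 6 of 16 rose from day 7 to day 14, and without day 1 replicate 3 none of 16 fell from day 1 to day 7.

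Myocd, which encodes myocardin (on GRCm38, chromosome 11, 65176561 to 65269989), read 0.919, 1.17 and 1.32 FPKM on day 1, 0.834, 0.596, 1.05 and 0.70 on day 7. It read 3.17, 3.65, 3.9 and 2.51 FPKM on day 14, 1.95, 1.66, 1.28 and 2.04 on day 21, 1.79, 1.67, 1.87 and 2.62 on day 30. All day 14 libraries were above all others but the highest of day 30, which exceeded the lowest of day 14. The rise from day 7 to day 14 was the strongest among the contractile genes (log2 change 1.26 ± 0.16 SE, 2.39-fold, limma adjusted p = 2.5e-07), and Myocd was also above day 1 then (1.00 ± 0.17, limma adjusted p = 0.00026). These levels are low, so the fold is understated. Srf, its partner (chromosome 17, 46548329 to 46556175), read 15.6, 16.9 and 18.2 FPKM on day 1, 11.1, 12.5, 12.1 and 9.74 on day 7, 18.2, 17, 18.1 and 13.9 on day 14. Every day 7 library was below every library of days 1 and 14. Srf fell from day 1 to day 7 (-0.54 ± 0.12, limma adjusted p = 0.0076, and 0.107 without day 1 replicate 3) and rose from day 7 to day 14 (0.52 ± 0.11, limma adjusted p = 0.0013).

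Myh11, the smooth muscle myosin heavy chain (chromosome 16, 14194535 to 14291372), showed the same course at a far higher level. It read 375, 377 and 451 FPKM on day 1, 203, 279, 300.2 and 349 on day 7. It then read 534, 502, 527 and 520.1 FPKM on day 14, 433, 456, 369.7 and 420.0 on day 21, 365, 398, 482 and 551 on day 30. The 4 day 14 libraries lay close together and above all day 7 libraries (log2 change 0.91 ± 0.18 SE, 1.87-fold, limma adjusted p = 0.00044). Lmod1, a leiomodin that nucleates actin filaments (chromosome 1, 135324807 to 135368065), read 68.3, 82, 88.6 and 90.8 FPKM on day 7, 149.9, 130.2, 120.0 and 144 on day 14 and rose (0.72 ± 0.15, limma adjusted p = 0.0011). The groups did not overlap. Acta2, smooth muscle actin (chromosome 19, 34241090 to 34255336), read 2598, 4079, 3974 and 4899 FPKM on day 7, 6393, 5979, 5755 and 6827 on day 14. Its rise (0.72 ± 0.19, limma adjusted p = 0.013) passed, but at 0.139 it missed the threshold without day 7 replicate 1, its lowest library. Cnn1, the actin-binding calponin, fell from day 1 to day 7 (-0.82 ± 0.20, limma adjusted p = 0.014, and up to 0.133 without day 1 replicate 2 or 3 or day 7 replicate 1) and rose to day 14 (0.73 ± 0.18, limma adjusted p = 0.0072, or 0.0919 without day 7 replicate 1). Tagln, another actin-binding protein, read 40.2, 42.5 and 42.2 FPKM on day 1, 18, 26.2, 29.3 and 32.6 on day 7, 24.8, 31.6, 34.1 and 41.5 on day 14, and its difference between days 14 and 7 did not pass (0.31 ± 0.19, limma adjusted p = 0.39).

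Ppp1r12a, the targeting subunit of the phosphatase that relaxes myosin (chromosome 10, 108162193 to 108284475), rose more evenly than the actin and myosin genes. It read 35.1, 34.4 and 38.7 FPKM on day 1, 23.5, 28, 30.6 and 33 on day 7. It then read 56.1, 56.4, 51.6 and 54.7 FPKM on day 14, 44.5, 48, 39.4 and 44.7 on day 21, 39.4, 40.6, 42.8 and 48.9 on day 30. Day 14 was above every other library of the course. The change from day 7 to day 14 was log2 change 0.91 ± 0.13 SE, 1.88-fold, limma adjusted p = 3.9e-06, and day 14 was also above day 1 (0.59 ± 0.14, limma adjusted p = 0.011). The call against day 1 was lost without day 1 replicate 1 or 2 (limma adjusted p up to 0.0646). For Ppp1r12a the difference from sham AL in the change from day 7 to day 14 did not pass.

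**Figure D2:**
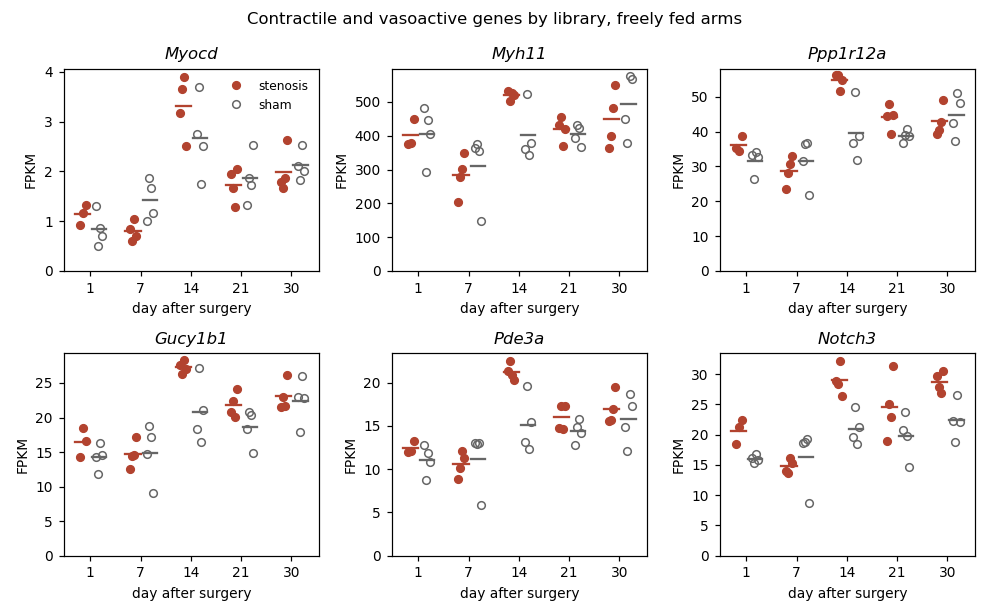
FPKM of Myocd, Myh11, Ppp1r12a, Gucy1b1, Pde3a and Notch3 by day after surgery in single libraries of stenosis (filled) and sham (open) arteries under free feeding, with bars at the means. Stenosis libraries are low on day 7 and high on day 14, and sham means of Myocd go from 1.42 to 2.68 FPKM between the same days.

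Sham arteries moved in part the same way. The mean log2 level of contractile smooth muscle genes in sham AL was 6.04 to 7.03 on day 7, with replicate 4 at 6.04 and the others at 7.0 or above, and 6.93 to 7.43 on day 14. Myocd in sham AL was 1.42 ± 0.406 FPKM (SD, n = 4) on day 7 and 2.68 ± 0.802 on day 14. When the change from day 7 to day 14 was set against that of sham arteries, a contrast added after the data had been seen, 76 genes passed (0.484%, or 0.28% higher and 0.204% lower), and of the 16 contractile genes Srf alone did (0.63 ± 0.16 SE, limma adjusted p = 0.045). Leaving out stenosis day 7 replicates 1, 2, 3 and 4 in turn took the 76 to 23, 45, 49 and 48, and leaving out stenosis day 14 replicate 1 or 3 took it to 40. Without sham AL day 7 replicates 1 to 4 it was 367, 49, 163 and 181, and without sham AL day 14 replicates 1 to 4 it was 28, 156, 25 and 47. The call of Srf was lost under 14 of 23 alternatives, with an adjusted p of up to 0.112. The difference from sham AL of the other 15 did not pass.

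The promoter of Srf is shown because SRF is known to act on its own gene through CArG boxes. The 250 bases before the RefSeq start (GRCm38.p6, chr17:46556163-46556412, minus strand) are written 5′ to 3′, with CArG boxes in capitals, at 82 and 62 bases before the start.
Srf: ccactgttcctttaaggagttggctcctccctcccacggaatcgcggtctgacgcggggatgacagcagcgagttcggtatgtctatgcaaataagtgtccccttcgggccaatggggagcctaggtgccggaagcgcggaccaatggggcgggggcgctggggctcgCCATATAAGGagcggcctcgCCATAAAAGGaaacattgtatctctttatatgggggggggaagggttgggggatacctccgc
A CArG box on either strand was found in this window for 2 of 12 contractile genes with a window, and for 1.62% of the 27025 genes in the table. A match of letters is a description and says nothing about binding in these arteries.

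Genes that set vessel tone rose over the same days. Of 20 vasoactive genes 17 passed the filter on low values. From day 7 to day 14, 13 of these rose (4.25% of genes tested rose), none fell and 4 did not pass. Their median log2 change was 0.51. On day 14, 7 were above day 1 (0.898% of genes tested rose there), and on day 30, 5 were above day 7 (0.274%). Without single libraries the number above day 1 was 3 to 6, the lowest without day 1 replicate 1, and the number above day 7 on day 30 was 0 to 3, the lowest without day 7 replicate 1. Gucy1b1, a subunit of soluble guanylate cyclase (chromosome 3, 82032006 to 82074689), read 14.2, 18.4 and 16.6 FPKM on day 1, 12.5, 14.4, 14.6 and 17.1 on day 7. It read 27.6, 26.3, 28.3 and 27.1 FPKM on day 14, 20.7, 22.4, 20 and 24.2 on day 21, 21.5, 23, 21.7 and 26.1 on day 30. Day 14 was above all other libraries, and days 21 and 30 were above all of day 7. The rise from day 7 to day 14 was log2 change 0.86 ± 0.14 SE, 1.82-fold, limma adjusted p = 3.9e-05.

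Downstream of it, Prkg1, the cGMP-dependent kinase (chromosome 19, 30567551 to 31765033), read 0.475, 0.462 and 0.988 FPKM on day 1, 0.951, 0.38, 0.696 and 0.602 on day 7, 1.56, 1.95, 2.6 and 1.57 on day 14. All day 14 libraries were above all of days 1 and 7, at low levels throughout. It rose against day 7 (0.81 ± 0.14, limma adjusted p = 4.6e-05) and against day 1 (0.83 ± 0.15, limma adjusted p = 0.00056). Pde3a, a phosphodiesterase that breaks down cyclic nucleotides (chromosome 6, 141249269 to 141507448), read 8.81, 10.1, 12 and 11.3 FPKM on day 7, 21.3, 22.5, 20.9 and 20.3 on day 14, 15.5, 15.6, 17 and 19.5 on day 30. Day 14 was above day 30, and day 30 above day 7, without overlap. The change was log2 change 0.95 ± 0.15 SE, 1.94-fold, limma adjusted p = 2.3e-05 on day 14, and on day 30 it was 0.63 ± 0.15, limma adjusted p = 0.041. The day 30 call was lost under 7 of 15 alternatives, among them leaving out day 7 replicate 1, 2 or 3 or day 30 replicate 2, 3 or 4 (up to 0.286). Cacna1c, the pore of the L-type calcium channel (chromosome 6, 118587240 to 119196418), read 2.1, 2.44, 2.29 and 2.51 FPKM on day 7, 3.51, 3.46, 4.54 and 3.55 on day 14 and rose by less (0.51 ± 0.08, limma adjusted p = 3.1e-05). Its groups did not overlap. For Gucy1b1, Prkg1, Pde3a and Cacna1c, the difference from sham AL in the change from day 7 to day 14 did not pass.

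Signalling and cytoskeletal genes of the vessel wall followed. Notch3, a receptor that maintains smooth muscle and pericytes (chromosome 17, 32120820 to 32166880), read 18.4, 21.2 and 22.5 FPKM on day 1, 14.1, 13.7, 16.2 and 15.3 on day 7. It read 28.9, 28.4, 32.2 and 26.3 FPKM on day 14, 19, 25.1, 23 and 31.4 on day 21, 29.7, 27.9, 26.9 and 30.5 on day 30. Every library of days 14, 21 and 30 was above every library of day 7. Notch3 rose on day 14 (log2 change 0.92 ± 0.15 SE, 1.89-fold, limma adjusted p = 3.1e-05) and was still above day 7 on day 30 (0.91 ± 0.15, limma adjusted p = 0.0006). Tgfb3, a ligand of the TGF-beta family (chromosome 12, 86056745 to 86079041), read 121, 164 and 147 FPKM on day 1, 55.6, 91.2, 85 and 73.7 on day 7, 156, 137, 159 and 159 on day 14. Day 7 was below days 1 and 14 in every library. It fell from day 1 to day 7 (-0.92 ± 0.18, limma adjusted p = 0.0028) and rose from day 7 to day 14 (log2 change 1.01 ± 0.17 SE, 2.02-fold, limma adjusted p = 3.8e-05). Neither Notch3 nor Tgfb3 passed for a difference from sham AL in the change from day 7 to day 14.

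Vcl, vinculin of focal adhesions (chromosome 14, 20929398 to 21033676), read 2.92, 2.85 and 4.28 FPKM on day 1, 4.62, 2.44, 2.93 and 2.01 on day 7, 10.9, 10.7, 14.1 and 8.92 on day 14. It rose from day 7 to day 14 (log2 change 1.63 ± 0.32 SE, 3.09-fold, limma adjusted p = 0.00039), with no overlap. Sham AL went from 5.94 ± 4.0 FPKM (SD, n = 4) to 9.36 ± 3.33 between the same days. The difference between stenosis and sham AL in this change did not pass. Abra, an actin-binding activator of SRF (chromosome 15, 41864076 to 41869720), read 1.24, 4.42, 2.34 and 2.99 FPKM on day 7, 8.33, 9.12, 13.1 and 7.13 on day 14, 3.71, 4.49, 5.32 and 4.38 on day 30. Day 14 was above both other days in every library. It rose from day 7 to day 14 (log2 change 1.52 ± 0.21 SE, 2.86-fold, limma adjusted p = 2.4e-06), and its rise exceeded that in sham AL by 1.35 ± 0.29 SE, limma adjusted p = 0.016, a call lost without day 7 replicate 1, day 14 replicate 3 or sham AL day 14 replicate 3 and in a fit to AL libraries alone (up to 0.085).

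Heat shock chaperone genes were raised in part on day 14. Of 20 genes, 10 rose from day 7 to day 14 (4.25% of genes tested rose) and none fell, with a median log2 change of 0.38. On day 14, 3 were above day 1 (0.898% of genes tested rose there). From day 14 to day 30, 6 fell (0.166% of genes tested fell there). The lowest counts without 1 library were 5 rises without day 7 replicate 1 and 2 falls without day 14 replicate 1. Dnajb4, a cochaperone of HSP70 (chromosome 3, 152178511 to 152210302), read 9.54, 12 and 10.9 FPKM on day 1, 8.36, 11.2, 9.6 and 9.6 on day 7. It read 21.3, 21, 24.8 and 16.3 FPKM on day 14, 13.6, 15.6, 10.9 and 18.5 on day 21, 10.4, 11, 10.3 and 9.36 on day 30. Day 14 was above days 1, 7 and 30 in every library, and day 21 reached into it. Dnajb4 rose from day 7 to day 14 (log2 change 1.02 ± 0.12 SE, 2.03-fold, limma adjusted p = 2.5e-07) and fell from day 14 to day 30 (-0.94 ± 0.12, limma adjusted p = 3.9e-06).

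Dnajb1, another HSP70 cochaperone (chromosome 8, 83608193 to 83612653), read 10, 12.6, 10.7 and 13.3 FPKM on day 7, 24.9, 19.2, 33.2 and 17.9 on day 14, 12.1, 11.6, 9.64 and 9.52 on day 30. It rose from day 7 to day 14 (log2 change 0.94 ± 0.17 SE, 1.92-fold, limma adjusted p = 0.00021) and fell by day 30 (-1.05 ± 0.17, limma adjusted p = 0.00019), without overlap of day 14 with either. Hspa1a, an inducible HSP70 (chromosome 17, 34969190 to 34972156), was more variable. It read 11.8, 15.6, 19.8 and 28.3 FPKM on day 7, 71.1, 45.6, 119 and 20.7 on day 14, 29.1, 16.3, 12 and 12.3 on day 30, and day 14 replicate 4 overlapped with day 7. Its rise from day 7 was log2 change 1.52 ± 0.35 SE, 2.87-fold, limma adjusted p = 0.003. Because Hspa1a and Hspa1b are near-identical, counting may have split their fragments and the value of each is uncertain. Hsph1, a nucleotide exchange factor of HSP70 (chromosome 5, 149614287 to 149636376), read 19.1, 21, 24.4 and 20.8 FPKM on day 7, 49.4, 44.9, 39.7 and 33.9 on day 14 and rose (0.94 ± 0.19, limma adjusted p = 0.00071) with no overlap. Chordc1, a cochaperone of HSP90, also rose (0.50 ± 0.12, limma adjusted p = 0.0039).

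Promoters of Dnajb4, Hsph1 and Hspa1a are shown because these 3 genes rose together and hold a heat shock element. For each gene the first RefSeq start whose window held the element was taken, so the choice fixed its presence. The Dnajb4 window lies inside the span given for that gene. The windows are the 250 bases before a RefSeq start on GRCm38.p6, all on the minus strand, at chr3:152193846-152194095, chr5:149636337-149636586 and chr17:34972157-34972406. Capitals mark GAANNTTC or TTCNNGAA, searched on both strands, at 14, 33 and 104 bases before the start.
Dnajb4: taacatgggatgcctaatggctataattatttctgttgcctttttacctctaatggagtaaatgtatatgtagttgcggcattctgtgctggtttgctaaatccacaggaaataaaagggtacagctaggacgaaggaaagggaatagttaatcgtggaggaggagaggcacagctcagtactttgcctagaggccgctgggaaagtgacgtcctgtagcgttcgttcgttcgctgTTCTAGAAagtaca
Hsph1: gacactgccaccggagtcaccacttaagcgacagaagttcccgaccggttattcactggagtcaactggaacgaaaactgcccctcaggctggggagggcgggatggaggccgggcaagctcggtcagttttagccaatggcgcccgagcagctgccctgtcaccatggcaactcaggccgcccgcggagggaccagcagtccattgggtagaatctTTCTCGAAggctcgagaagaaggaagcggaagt
Hspa1a: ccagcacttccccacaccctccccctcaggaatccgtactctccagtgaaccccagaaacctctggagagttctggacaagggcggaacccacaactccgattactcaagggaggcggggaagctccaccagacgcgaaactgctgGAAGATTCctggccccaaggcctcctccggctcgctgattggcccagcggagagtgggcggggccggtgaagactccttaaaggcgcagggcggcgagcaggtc
One of the 2 motifs was present for 9 of 15 heat shock chaperone genes with a window and for 14.5% of all 27025 genes. The match is a description of letters and not a test of HSF1.

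Some stress-response genes peaked on day 14 as well, with uneven levels among its libraries. Atf3, a stress-induced transcription factor (chromosome 1, 191170296 to 191218039), read 3.04, 3.5 and 4.59 FPKM on day 1, 2.29, 6.9, 3.61 and 5.21 on day 7. It read 16.3, 11.1, 49.7 and 9.86 FPKM on day 14, 11.2, 21.8, 6.17 and 11.9 on day 21, 3.85, 4.8, 6.63 and 2.8 on day 30. Day 14 did not overlap with days 1, 7 or 30, and its replicate 3 lay far above the other 3. The rise from day 7 was log2 change 1.82 ± 0.39 SE, 3.53-fold, limma adjusted p = 0.0017, and it passed without any 1 library. Against day 1 (1.98 ± 0.43, limma adjusted p = 0.004), the adjusted p was 0.0538 without day 14 replicate 3. Of 20 immediate early genes, 3 rose from day 7 to day 14 (4.25% of genes tested rose) and none fell, with a median of 0.40. The 3 became 2 without day 7 replicate 1 or day 14 replicate 1 or 3, 5 without day 7 replicate 2 or day 14 replicate 2, 5 without the 3 libraries rich in short genes and 7 in a fit to the stenosis AL libraries alone.

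Thbs1, the matricellular protein thrombospondin 1 (chromosome 2, 118111876 to 118127133), read 24.9, 54.3, 46.2 and 49.9 FPKM on day 7, 83.7, 85.6, 150.3 and 78.3 on day 14, 39.4, 53.3, 55.6 and 49.9 on day 30. Day 14 was above both days in every library. It rose from day 7 (log2 change 1.17 ± 0.20 SE, 2.25-fold, limma adjusted p = 0.0001) and fell by day 30 (-0.95 ± 0.20, limma adjusted p = 0.011), where the fall missed the threshold without day 14 replicate 3 or day 30 replicate 1 and in the fit to stenosis AL libraries alone (up to 0.183).

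**Figure D3:**
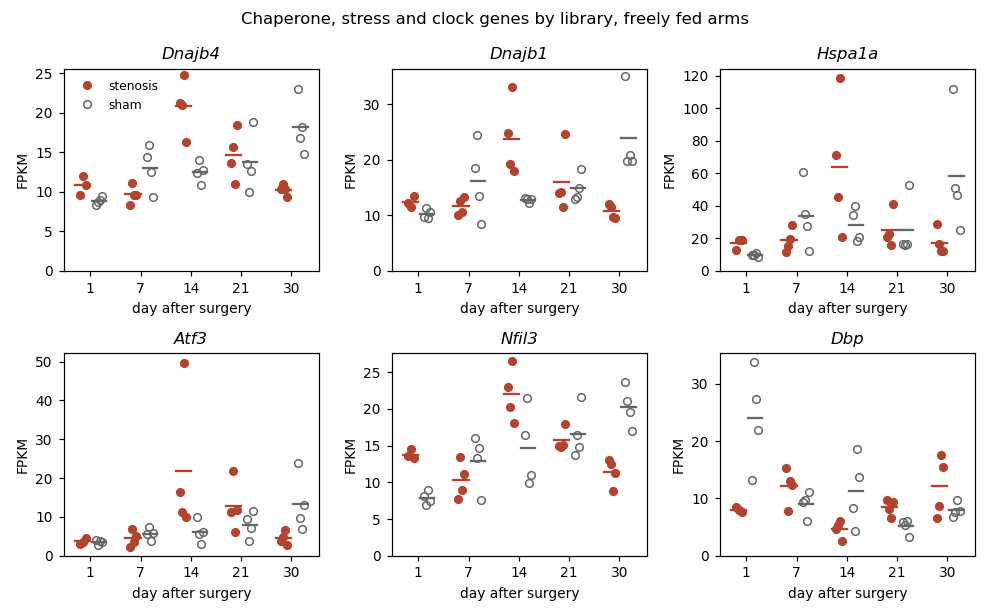
FPKM of the chaperone genes Dnajb4, Dnajb1 and Hspa1a, of Atf3 and of the clock genes Nfil3 and Dbp by day after surgery, in single libraries of stenosis (filled) and sham (open) arteries under free feeding, with bars at the means. Dnajb4 in stenosis is 16.3 to 24.8 FPKM on day 14 and 9.36 to 11 on day 30, while Dbp is lowest on day 14.

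Part of the fibroblast and microglia genes fell from day 7 to day 14, and fewer of them had risen from day 1 to day 7. Of 14 fibroblast and meninges genes, 3 rose from day 1 to day 7 (0.974% of genes tested rose) and 7 fell from day 7 to day 14 (2.64% fell), with medians of 0.29 and -0.37. Of 8 microglia genes, 4 rose to day 7 and 5 fell to day 14, with medians of 0.57 and -0.37. Without day 7 replicate 1, 2 fibroblast and meninges genes and 2 microglia genes fell to day 14, and without day 1 replicate 3, 0 and 1 rose to day 7. The summed FPKM of 5 fibroblast markers was 331.7 to 405.3 on day 1, 450.6 to 549.6 on day 7 and 336.6 to 438.4 on day 14. Its day 7 range did not overlap with the neighbours. Values are shares of all fragments, and the summed smooth muscle markers moved in the opposite direction (5907 to 6713 FPKM on day 1, 3019 to 5607 on day 7, 6820 to 7834 on day 14), whose part in the fibroblast and microglia values was not tested.

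Lum, the collagen-binding proteoglycan lumican (chromosome 10, 97565128 to 97572703), read 56.9, 66.8 and 43.9 FPKM on day 1, 100.3, 85, 97.6 and 85.5 on day 7, 63.5, 74.9, 51.9 and 64 on day 14. All day 7 libraries were above all of days 1 and 14. It rose to day 7 (log2 change 0.73 ± 0.13 SE, 1.66-fold, limma adjusted p = 0.0015) and fell to day 14 (-0.54 ± 0.12, limma adjusted p = 0.0029), with 0.067 for the rise without day 1 replicate 3. Islr, a secreted protein of mesenchymal cells, fell from day 7 to day 14 (-0.36 ± 0.08, limma adjusted p = 0.0031). P2ry13, a purine receptor of microglia (chromosome 3, 59207892 to 59210882), read 1.27, 1.66 and 1.56 FPKM on day 1, 3.33, 4.02, 2.85 and 3.09 on day 7, 1.53, 2.39, 1.92 and 1.78 on day 14. Day 7 was above both days in every library. It rose to day 7 (log2 change 0.79 ± 0.16 SE, 1.73-fold, limma adjusted p = 0.0033) and fell to day 14 (-0.57 ± 0.15, limma adjusted p = 0.0086).

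Cx3cr1, the fractalkine receptor, read 5.63, 5.96 and 5.54 FPKM on day 1, 11.1, 10.3, 10 and 9.79 on day 7, 6.36, 6.56, 6.37 and 7.61 on day 14. It rose to day 7 (0.75 ± 0.17, limma adjusted p = 0.01, and 0.0797 without day 1 replicate 3) and fell to day 14 (-0.55 ± 0.16, limma adjusted p = 0.023). The fall was lost without day 7 replicate 1, day 14 replicate 1 or day 14 replicate 3 and without the filter on low values, with p up to 0.0886. Tmem119, a defining microglia gene, did not follow them: it read 35.3, 31.8 and 33.5 FPKM on day 1, 24.4, 28, 30.8 and 28.7 on day 7, 23.4, 23.3, 19.2 and 21.4 on day 14, with no call on day 7 (-0.26 ± 0.10, limma adjusted p = 0.16), and fell from day 1 to day 14 (-0.60 ± 0.10, limma adjusted p = 0.00021). The summed level of 5 microglia markers, most of it Tmem119, was 38.5 to 43.0 FPKM on day 1, 35.6 to 42.1 on day 7 and 26.7 to 32.8 on day 14. Of 13 macrophage genes 2 rose to day 7 (0.974% of genes tested rose). Among them was Aif1, the calcium-binding IBA1 of macrophages and microglia (0.67 ± 0.17, limma adjusted p = 0.019). Without day 1 replicate 1, day 1 replicate 3 or day 7 replicate 2 its adjusted p was up to 0.161.

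Mmp14 and Wnt4 were lowest on day 14, and Adamtsl2, Tgfbi and Lbp fell from day 7 to day 14. Mmp14, a membrane-bound metalloproteinase (chromosome 14, 54431612 to 54445364), read 16.1, 12 and 20.9 FPKM on day 1, 20.5, 17, 18.7 and 11.7 on day 7. It read 6.33, 5.24, 8.32 and 4.51 FPKM on day 14, 10.7, 10.6, 13.4 and 14.6 on day 21, 17.7, 14.8, 11.6 and 13.3 on day 30. The 4 day 14 libraries were below all others. It fell from day 7 to day 14 (log2 change -1.34 ± 0.20 SE, 0.39-fold, limma adjusted p = 1e-05) and rose again by day 30 (1.12 ± 0.20, limma adjusted p = 0.00091). Sham AL was also lower on day 14 (7.88 ± 1.02 FPKM, SD, n = 4) than on day 7 (17.4 ± 6.43).

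Wnt4, a secreted signalling protein (chromosome 4, 137277489 to 137299726), read 40.6, 45.7 and 45.8 FPKM on day 1, 53.7, 48.3, 57.3 and 48.6 on day 7. It read 27.8, 28.4, 30.4 and 24.2 FPKM on day 14, 46, 40.4, 40.5 and 47.5 on day 21, 49.5, 45.7, 48.3 and 44 on day 30. Day 14 was again below every other library. The fall from day 7 was log2 change -0.88 ± 0.12 SE, 0.54-fold, limma adjusted p = 1.5e-06, and the rise to day 30 was 0.74 ± 0.12, limma adjusted p = 0.00017. Adamtsl2, a secreted matrix protein that binds fibrillin, fell from day 7 to day 14 (-0.60 ± 0.13, limma adjusted p = 0.0021) and from day 1 (-0.73 ± 0.14, limma adjusted p = 0.0019), and its mean was 2.22 ± 0.191 FPKM (SD, n = 4) on day 14 and 2.13 ± 0.827 on day 21. Tgfbi, an adhesion protein induced by TGF-beta, read 31, 28.1, 30 and 27 FPKM on day 7, 18.5, 21.6, 18.9 and 20.3 on day 14 and fell without overlap (-0.53 ± 0.08, limma adjusted p = 2.4e-05). Lbp, which binds bacterial lipopolysaccharide, fell as well (-0.45 ± 0.09, limma adjusted p = 0.00045). Col3a1, a fibrillar collagen, was above day 1 on day 14 (0.53 ± 0.12, limma adjusted p = 0.0071), a call lost without day 1 replicate 1 or 3 (up to 0.0743).

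Genes that rose from day 7 to day 14 were long, with a median length of 5821 bases against 4310 in those that fell and 3398 in all genes tested. Among the 3923 longest genes (5810 bases or more) 334 rose and 130 fell, and day 14 libraries were shallower (15539003 to 18267113 fragments) than those of day 7 (18978029 to 21651437). The part of gene length and depth in these counts was not tested. Summed pituitary markers, from a tissue next to the arteries at the base of the brain, were 82.1 to 1028 FPKM on day 14 and 54.6 to 197 on day 7, and no gene of the list passed there (0 of 5 also at an unadjusted p under 0.05 and by limma-voom).

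Other cell types and functions showed few or no changes from day 7 to day 14. None of 15 endothelial genes passed in limma, with 2 at an unadjusted p under 0.05 and 0 in limma-voom. None of 75 nuclear genes of oxidative phosphorylation passed (3 unadjusted, 0 in limma-voom), none of 78 cytosolic ribosomal protein genes (1 and 0), none of 13 genes of the mitochondrial genome (0 and 0), none of 25 proteasome genes (1 and 0) and none of 20 interferon response genes (0 and 0). A p that misses the threshold does not show that these genes held still. Of 22 hypoxia genes 2 rose and 2 fell, and of 21 TGF-beta and BMP genes 3 rose and 2 fell, where 4.25% of all genes tested rose and 2.64% fell.

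**Figure D4:**
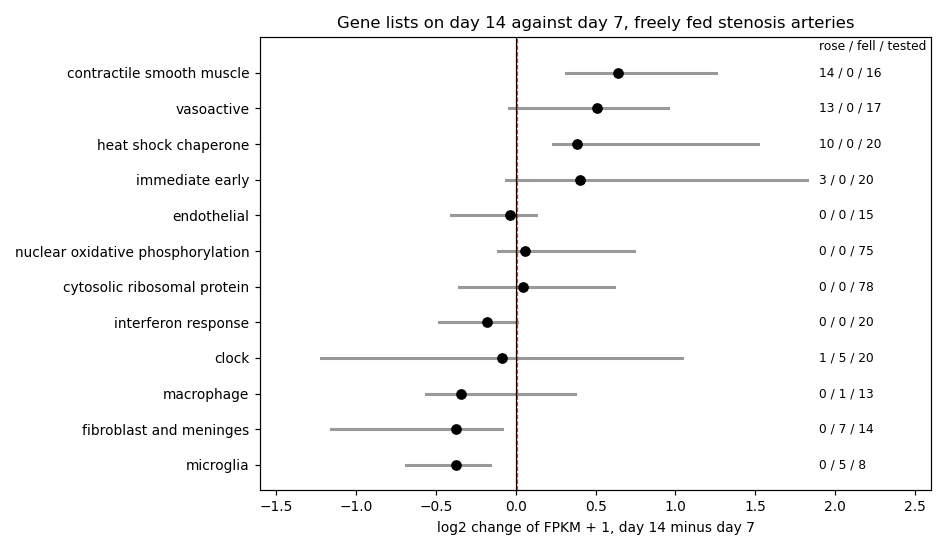
Change from day 7 to day 14 in stenosis arteries for 12 gene lists, as the median log2 change (dot) and the lowest and highest gene (line), with the number of genes that rose, fell and were tested, and a dashed line at the median over all genes tested (0.01). Contractile and vasoactive genes have medians of 0.64 and 0.51, and fibroblast and microglia genes both have -0.37.

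Single named genes had their highest mean on day 1, and for some of them the call rested on 1 day 1 library. Atf5, a factor of the mitochondrial and amino acid stress response (chromosome 7, 44812256 to 44816658), read 119.8, 178 and 205 FPKM on day 1, 68.8, 77.8, 75.8 and 76.6 on day 7. It read 72.8, 74.3, 79.4 and 80.2 FPKM on day 14, 89.4, 91.2, 68.5 and 87.3 on day 21, 77.8, 86.8, 88.6 and 110.3 on day 30. Every day 1 library was above every later one. It fell to day 7 (log2 change -1.12 ± 0.15 SE, 0.46-fold, limma adjusted p = 4.4e-06) and was below day 1 on all later days, as far as day 30 (-0.85 ± 0.15, limma adjusted p = 0.0027), under every alternative tried. Sham AL was 171 ± 20.2 FPKM (SD, n = 4) on day 1 and 74.1 ± 11.8 on day 7.

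Edn1, the vasoconstrictor endothelin 1 (chromosome 13, 42301476 to 42307990), read 63.7, 47.2 and 55 FPKM on day 1, 33.1, 33.5, 29.1 and 40.3 on day 7, 27.3, 29.9, 20.4 and 28.5 on day 14. Day 1 was above both days in every library. It fell from day 1 to day 14 (log2 change -1.04 ± 0.20 SE, 0.49-fold, limma adjusted p = 0.0015), and sham AL was 34.7 ± 4.47 FPKM (SD, n = 4) on day 1. Cdkn1a, the cell cycle inhibitor p21 (chromosome 17, 29090976 to 29100727), read 35.6, 31.2 and 31 FPKM on day 1, 13.5, 17.3, 16 and 18.4 on day 7, 18.3, 17.2, 13.5 and 16.4 on day 30. Its day 1 libraries were above all of days 7 and 30. It fell to day 7 (log2 change -0.97 ± 0.21 SE, 0.51-fold, limma adjusted p = 0.0064). From day 7 to day 14 it rose (0.69, limma adjusted p = 0.018), a call lost without day 7 replicate 1 or day 14 replicate 1 (up to 0.188). Day 30 was below day 1 (-0.96, limma adjusted p = 0.017), a call lost under 4 of 14 alternatives.

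Timp1, an inhibitor of metalloproteinases (chromosome X, 20870166 to 20874735), read 218, 56.9 and 36.7 FPKM on day 1, 29.9, 39.4, 31.1 and 37.5 on day 7, 30.8, 28.6, 25.4 and 27.4 on day 14. Day 1 replicate 1 was far above the other 2. The fall to day 14 (log2 change -1.43 ± 0.27 SE, 0.37-fold, limma adjusted p = 0.001) was lost without that library and in a fit to the stenosis AL libraries alone, with p up to 0.121. Pdk4, a kinase that turns glucose oxidation down, fell from day 1 to day 14 (-1.0 ± 0.22, limma adjusted p = 0.0048), lost without day 1 replicate 1 or 3 (up to 0.0608). Lars2, the mitochondrial leucyl-tRNA synthetase, read 3.87, 55 and 13.3 FPKM on day 1, 3.64, 3.48, 3.56 and 2.61 on day 7, and its fall to day 7 (-1.87 ± 0.38, limma adjusted p = 0.0037) was lost without day 1 replicate 2, the library rich in short genes (0.188).

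Other genes were lowest on day 1. Nrep, a protein linked to neuronal regeneration, read 14.2, 19.2 and 15.6 FPKM on day 1, 24.8, 27.7, 28.4 and 22.1 on day 7, 29.2, 27.4, 30.7 and 33.7 on day 14. Day 1 was below both days in every library. It rose to day 7 (0.63 ± 0.13, limma adjusted p = 0.0033), day 14 (log2 change 0.86 ± 0.13 SE, 1.81-fold, limma adjusted p = 4.6e-05), day 21 (0.63 ± 0.13, limma adjusted p = 0.0078) and day 30 (0.66 ± 0.13, limma adjusted p = 0.0066). The calls of days 21 and 30 were lost without day 1 replicate 1, and that of day 21 also without day 1 replicate 3 (up to 0.116 and 0.0708). Gkn3, known in mouse as a marker of arterial endothelium (chromosome 6, 87383256 to 87388935), read 56, 124 and 134 FPKM on day 1, 299, 198, 221 and 305 on day 7. It rose to day 7 (log2 change 1.36 ± 0.30 SE, 2.56-fold, limma adjusted p = 0.007), with 0.0949 without day 1 replicate 1. Slco1c1, a thyroxine transporter of the blood-brain barrier, rose from day 1 to day 14 (0.92 ± 0.21, limma adjusted p = 0.0061, and 0.0613 without day 1 replicate 3), and Abi3bp, a matrix protein, did as well (0.55 ± 0.11, limma adjusted p = 0.0021).

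Red blood cell markers were high on day 1 and low on day 30. Their summed level was 373.9 to 1894 FPKM on day 1 and 33.2 to 206.4 on day 30, against 28.5 to 92.4 in sham AL on day 1. The mean log2 level of the list was 4.85 to 7.19 on day 1 and 2.22 to 4.06 on day 30. On days 7 and 14 it was 2.13 to 6.19 and 3.45 to 5.96, highest in replicate 1 of each day. The summed levels of those days, 32.7 to 963 and 100 to 842 FPKM, overlapped with day 1. Of 5 genes tested, 1 fell from day 1 to day 30 (0.197% of genes tested fell) and 4 did not pass, with a median of -3.19. The part of blood left in the samples in the day 1 results was not tested.

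**Figure D5:**
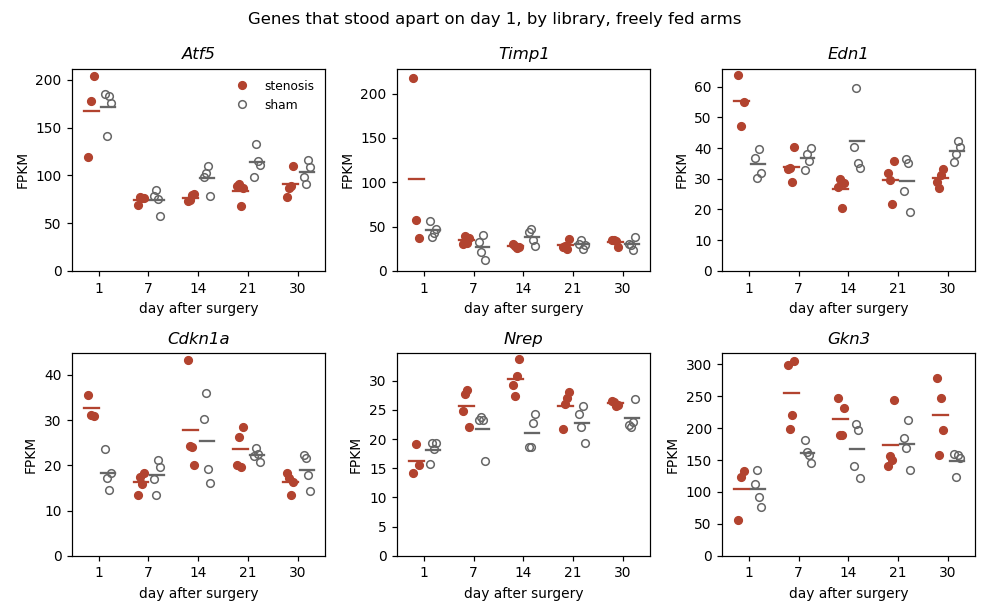
FPKM of Atf5, Timp1, Edn1, Cdkn1a, Nrep and Gkn3 by day after surgery in single libraries of stenosis (filled) and sham (open) arteries under free feeding, with bars at the means. Atf5 is 119.8 FPKM or more in each day 1 library of stenosis and 110.3 or less later, and 1 day 1 library of Timp1 is at 218 FPKM.

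Some clock genes changed between days 7 and 14. Of 20 clock genes, 5 fell, 1 rose and 14 did not pass (2.64% of genes tested fell and 4.25% rose), with a median log2 change of -0.09. Dbp, an output factor of the clock that binds D-boxes (chromosome 7, 45705088 to 45710203), read 8.59, 7.94 and 7.58 FPKM on day 1, 15.3, 7.81, 13 and 12.3 on day 7. It read 4.65, 5.33, 6.12 and 2.56 FPKM on day 14, 9.63, 8.11, 6.57 and 9.38 on day 21, 6.65, 8.64, 17.5 and 15.5 on day 30. Day 14 was below all other libraries. It fell from day 7 to day 14 (log2 change -1.22 ± 0.26 SE, 0.43-fold, limma adjusted p = 0.0013). Nfil3, a repressor that binds the same sites (chromosome 13, 52967209 to 52981073), read 7.7, 13.5, 8.89 and 11.1 FPKM on day 7, 23, 20.2, 26.6 and 18.1 on day 14, 13, 12.5, 8.77 and 11.3 on day 30. It was above both days on day 14 in every library. Nfil3 rose from day 7 (log2 change 1.04 ± 0.18 SE, 2.06-fold, limma adjusted p = 7.7e-05) and fell to day 30 (-0.89 ± 0.18, limma adjusted p = 0.0062), the latter up to 0.0662 without day 14 replicate 3 or day 30 replicate 3.

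Per3, a period protein (chromosome 4, 151003652 to 151044665), read 2.37, 2.88 and 2.14 FPKM on day 1, 4.28, 3.5, 4.01 and 3.84 on day 7, 2.57, 2.87, 2.55 and 2.07 on day 14. It fell from day 7 to day 14 (-0.48 ± 0.12, limma adjusted p = 0.0043), with no overlap. Nr1d2, a repressor of the clock loop, fell too (-0.67 ± 0.14, limma adjusted p = 0.0008), as did its relative Nr1d1 (-0.88 ± 0.25, limma adjusted p = 0.021). The call of Nr1d1 was lost without day 7 replicate 1, 3 or 4 or day 14 replicate 1 or 4 (up to 0.0942). The hour of collection was not given, so day after surgery and hour of day cannot be told apart in these genes. The promoter of Per3 is shown because it holds D-boxes, to which Dbp and Nfil3 bind. The 250 bases before the RefSeq start (GRCm38.p6, chr4:151044666-151044915, minus strand) carry TTATGTAA, in capitals, at 205 and 158 bases before the start.
Per3: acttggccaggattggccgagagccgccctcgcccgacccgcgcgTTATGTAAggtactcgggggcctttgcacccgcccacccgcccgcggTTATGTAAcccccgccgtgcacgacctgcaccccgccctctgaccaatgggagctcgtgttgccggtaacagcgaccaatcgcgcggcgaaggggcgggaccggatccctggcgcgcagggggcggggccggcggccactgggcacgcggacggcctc
The motif, searched on both strands, was in the window of 1 of 17 clock genes and of 0.977% of all genes, and no statement about binding follows from it.

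Set against the course of sham arteries, 310 genes moved differently over the 5 days (1.97%, limma F test). The change from day 1 differed for 399 genes on day 7 (2.54%, or 1.25% higher and 1.29% lower) and 215 on day 30 (1.37%, or 0.318% higher and 1.05% lower). It differed for 4 genes on day 14 (0.0255%, or 0.00637% higher and 0.0191% lower) and 6 on day 21 (0.0382%, or 0.0318% higher and 0.00637% lower). The F count was 839 without sham AL day 7 replicate 1 and 184 without sham AL day 30 replicate 1. The day 30 count was 93 and 136 without stenosis day 1 replicate 3 and day 30 replicate 3, and 103 and 140 without sham AL day 30 replicates 1 and 3. The day 7 count was 251, 236 and 223 without stenosis day 1 replicates 1, 2 and 3, and 632, 188 and 177 without stenosis day 7 replicates 1, 2 and 4. It was 187 and 174 without sham AL day 1 replicates 1 and 4, and 1489 and 242 without sham AL day 7 replicates 1 and 4. The counts of days 14 and 21 were 0 to 29 and 0 to 12 without single libraries of either arm. These contrasts share the day 1 libraries, and day 7 of sham AL held 2 libraries rich in short genes. Of 78 ribosomal protein genes 5 and of 75 oxidative phosphorylation genes 11 were higher in the day 7 contrast. These counts ran from 0 to 54 and from 1 to 57 when single libraries were left out. They were 0 and 1 without stenosis day 7 replicate 4, without sham AL day 7 replicate 4, which is rich in short genes, and in a fit to AL libraries alone. The counts were highest without sham AL day 7 replicate 1. Without the 3 libraries rich in short genes both were 0, and the median log2 differences were 0.25 and 0.20, against 0.42 and 0.41 with them.

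Chaperones parted from sham by day 30. For 8 of 20 heat shock chaperone genes, the change from day 1 to day 30 was lower than in sham AL. The change to day 7 was lower for 6, and on neither day was it higher for any. Over all genes tested, 1.05% were lower on day 30 and 1.29% on day 7. The day 30 count was 7 to 9 without single libraries and 3 at the lowest in a fit to AL libraries alone. The day 7 count was 0 without stenosis day 1 replicate 2. It was also 0 without the 3 libraries rich in short genes and in a fit to AL libraries alone. Dnajb4 was 10.3 ± 0.692 FPKM (SD, n = 4) in stenosis and 18.2 ± 3.47 in sham AL on day 30, and 10.8 ± 1.24 (n = 3) and 8.85 ± 0.486 on day 1. The difference in change was -1.01 ± 0.18 SE, limma adjusted p = 0.0024. Dnajb1 was 10.7 ± 1.31 in stenosis and 23.9 ± 7.48 in sham on day 30. Its difference in change, which also counts day 1, was -1.30 ± 0.25 SE, limma adjusted p = 0.0026. Between days 7 and 14, Dnajb4 rose by more in stenosis than in sham (1.06 ± 0.18 SE, limma adjusted p = 0.00076).

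For Thbs1 and the stress factor Atf4 too, the change from day 1 to day 30 was lower than in sham AL. The FPKM given for them and for Mafk are those of day 30. The differences in change also count the gap between the arms on day 1, so they are not the gap on day 30. Thbs1 was 49.5 ± 7.18 FPKM in stenosis and 93.1 ± 10.4 in sham AL on day 30 (-1.42 ± 0.30 SE, limma adjusted p = 0.0061). Atf4 was 63.4 ± 3.74 and 83.7 ± 4.6 (-0.75 ± 0.13 SE, limma adjusted p = 0.0019), and Mafk, a small MAF factor, was 16.3 ± 1.95 and 23.9 ± 3.23 (-0.91 ± 0.16 SE, limma adjusted p = 0.0019). Of 20 clock genes, the change from day 1 to day 30 was higher than in sham AL for 3 and lower for 1 (0.318% and 1.05% of genes tested), and 16 did not pass. Dbp on day 1 was 8.03 ± 0.511 FPKM (SD, n = 3) in stenosis and 24.1 ± 8.68 (n = 4) in sham AL, and its change to day 30 was higher in stenosis by 1.86 ± 0.38 SE, limma adjusted p = 0.0049. For Nfil3 the difference was -1.53 ± 0.26 SE, limma adjusted p = 0.0019. Snx18, a sorting nexin that shapes membranes (chromosome 13, 113592179 to 113618564), read 16.4, 18.1, 17.6 and 17.1 FPKM on day 7, 22.2, 22.1, 23.8 and 22.4 on day 14, while sham AL went from 18.9 ± 1.27 to 16.9 ± 0.883. Its change from day 7 to day 14 was higher in stenosis by 0.52 ± 0.09 SE, limma adjusted p = 0.00076.

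For Aif1 and P2ry13, genes of microglia and macrophages, the change from day 1 to day 7 was higher than in sham. On day 7 Aif1 was 11.4 ± 1.24 FPKM (SD, n = 4) in stenosis and 7.72 ± 1.73 in sham AL, and P2ry13 was 3.32 ± 0.503 and 2.06 ± 0.402. The difference in change was 1.12 ± 0.23 SE, limma adjusted p = 0.0052, for Aif1. For P2ry13 it was 0.86 ± 0.22 SE, limma adjusted p = 0.021. These differences also count the gap between the arms on day 1, so they are not the gap on day 7. The difference for P2ry13 was lost without day 1 replicate 1, day 7 replicate 2 or the 3 libraries rich in short genes and in a fit to AL libraries alone (up to 0.109). A list of 17 genes had led the comparison of stenosis with sham in earlier results of these same libraries. Of these, 4 rose from day 7 to day 14 (4.25% of genes tested rose) and 2 fell from day 1 to day 7 (1.38% fell). These counts are not independent evidence of a direction. Pi15, a secreted peptidase inhibitor (chromosome 1, 17601901 to 17630939), was one of the 17. It read 7.1, 6.65 and 8.7 FPKM on day 1, 6.23, 8.01, 7.49 and 8.82 on day 7, 14.9, 14.7, 17.6 and 13 on day 14, and all day 14 libraries were above all of the other 2 days. It rose from day 7 (log2 change 0.89 ± 0.21 SE, 1.86-fold, limma adjusted p = 0.0034). Sham AL was 5.83 ± 2.3 FPKM on day 7 and 6.21 ± 1.68 on day 14. Because Pi15 came from a list led by stenosis against sham in these libraries, its sham values are not independent evidence of a difference.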

How the data were processed

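Per the labels' protocols, 2 ug of total RNA purified on RNeasy columns went into each library, which Novogene prepared. The deposited data are 1 table of FPKM values, per the file headers, with the length and position of 54532 genes. DESeq 1.10.1 appears in the submitters' processing notes with no step given for it. Aligner, counter, build and annotation are not given in the sources used here. GENCODE M21 holds 54409 of the identifiers, 98.3% at the same coordinates, so positions are on GRCm38. Multiplied by gene length, FPKM values below 1000 fragments were whole multiples of 1 step (tolerance 0.05) in 100% of cases, which gave the depth of 15449245 to 23525091 fragments. A gene of 1 kb at 1 FPKM stood for 15.5 to 23.8 fragments.

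Replicates were numbered in accession order, as names only. Limma 3.58.1 (R 4.3.3, statmod 1.5.0, trend and robust) was run on log2(FPKM + 1) over all 78 libraries, with a mean for each of 20 groups and 58 residual degrees of freedom. The filter kept 15707 genes that reached 1 FPKM in 3 or more libraries. P-values are two-sided, adjusted by Benjamini-Hochberg over all genes, with a threshold of 0.05. Tests were the F test over 5 days, 10 pairs of days, and differences from the same change in sham AL, of which the one for day 14 against day 7 was added after seeing the data. On simulated data (15707 genes, 100 of them shifted by 0.5 and 100 by 1 in log2), day 14 against day 7 recovered 65% and 92% with 8 false calls. With day 1 changed, day 7 against day 1 recovered 55% and 93% with 11 false calls. The simulated noise was independent between genes, so these numbers do not cover shifts shared by many genes of a library.

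The libraries, gene lists and panel were chosen with earlier results of these data known. Named genes are protein-coding and among the 12 smallest p of the F test, the 6 largest rises and falls of a pair without overlap, up to 4 members of a list by F test and 2 by pair, a fixed panel, or the leading differences from sham AL. Some genes that the rule names are not reported here. Alternatives were a fit to the AL libraries or stenosis AL libraries alone, no filter, a pseudocount of 0.1, quantile normalization, limma-voom on recovered fragments, leaving out the 3 libraries rich in short genes, a score of brain markers as covariate, and leaving out each library. Promoters came from a RefSeq table on GRCm38.p6, and for each gene shown the first start whose window held the motif was taken.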

Additional observations from a re-analysis of the deposited data

Results flagged for a closer look

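Single libraries stood apart from the other 3 of their day in 12 of 228 groups of 4 checked over the named genes (5.26%). For independent groups chance gives about 1 in 20. Day 1, with 3 libraries, was not checked. The groups come from the same libraries, and some genes were named for lack of overlap between days. The share therefore cannot be weighed against chance. On day 14, replicate 3 was above the others for Atf3 (49.7 FPKM, next 16.3), Thbs1 (150 FPKM, next 85.6), Cacna1c (4.54 FPKM, next 3.55) and Lars2 (4.38 FPKM, next 3.69). Also on day 14, replicate 2 was below the others for Tgfb3 (137 FPKM, next 156) and replicate 4 above them for Cx3cr1 (7.61 FPKM, next 6.56). On day 21, replicate 3 was low for Atf5 (68.5 FPKM), and replicate 4 was high for Gkn3 (244 FPKM) and Nfil3 (17.9 FPKM). On day 30, replicate 4 was low for Timp1 (27.1 FPKM) and Cx3cr1 (6.02 FPKM), and on day 7 replicate 4 was low for Lars2 (2.61 FPKM).

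The change from day 1 in stenosis minus that in sham AL passed in limma for further named genes, given as log2 differences. By day 7 it was -0.75 for Srf, -0.63 for Dnajb4, -0.97 for Hsph1, -0.69 for Chordc1, -2.25 for Hspa1b, -1.02 for Nfil3, -0.59 for Mafk and -0.47 for Atf4. It was 0.86 for P2ry13, 1.12 for Aif1, 1.77 for Dbp and 0.78 for Per3. For Lars2 it was -4.21, and it ran from -5.06 to -2.28 over the 22 alternatives. It passed under all of them, among them the fit without the 3 libraries rich in short genes. That fit did not even out the share of fragments from short genes. In stenosis, replicate 3 of day 1 still held 0.10%, against 0.057% to 0.070% on day 7. The sham AL libraries kept for day 7 held 0.096% and 0.088%, against 0.057% to 0.087% on day 1. The part of this trait in the Lars2 difference was not tested. Of these day 7 calls, Hsph1 and Atf4 were each lost under 13 of 22 alternatives, Dnajb4 under 12, Mafk under 8, Hspa1b under 7, P2ry13 and Nfil3 under 4, Chordc1 under 3 and Srf, Dbp and Per3 under 1, while Aif1 was lost under none. By day 21 it was 2.02 for Dbp, 0.89 for Per3 and 1.07 for Nr1d2, lost under 5, 4 and 4 of 22 alternatives. By day 30 it was -0.68 for Srf, -1.01 for Dnajb4, -1.30 for Dnajb1, -2.30 for Hspa1a, -2.82 for Hspa1b, -1.09 for Hsph1, -0.78 for Chordc1, -1.42 for Thbs1, -1.02 for Edn1, -1.53 for Nfil3, -0.91 for Mafk and -0.75 for Atf4. It was 0.86 for Gpr34, a receptor of microglia, 0.91 for Aif1, 1.86 for Dbp, 0.91 for Per3 and 0.78 for Nr1d2. Of these day 30 calls, Edn1 was lost under 12 of 22 alternatives, Aif1 under 10, Hsph1 under 9, Nr1d2 under 8, Srf under 2, and Hspa1a, Hspa1b, Chordc1 and Gpr34 under 1, while the others were lost under none. All of these contrasts share the day 1 libraries of both arms, and the near-identical copies Hspa1a and Hspa1b are uncertain.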

How the results depend on the processing

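No paired analysis was possible because the labels and columns carry no replicate numbers shared between days. Of 2974 values of named genes under an alternative, 2483 kept their direction and stayed past the threshold, 491 kept the direction and missed it, and 0 changed direction. Only calls that passed in the fit to all 78 libraries were entered, and the alternatives refit the same libraries. A change of direction was therefore unlikely from the start. Of 183 calls, 74 held under every alternative. Leaving out single libraries moved the number of genes that changed on any day between 363 and 725, and of those that moved differently from sham AL between 184 and 839. The other ranges were 45 to 374 for day 7 against day 1, 128 to 245 for day 14 against day 1, 16 to 32 for day 21 against day 1, 21 to 40 for day 30 against day 1, 458 to 990 for day 14 against day 7, 1 to 69 for day 21 against day 7, 4 to 62 for day 30 against day 7, 0 to 4 for day 21 against day 14, 21 to 41 for day 30 against day 14 and 1 to 1 for day 30 against day 21. For differences from sham AL they were 174 to 1489 on day 7, 0 to 29 on day 14, 0 to 12 on day 21 and 93 to 261 on day 30, each against day 1, and 23 to 367 for day 14 against day 7. A fit to the stenosis AL libraries alone gave 106 for day 21 against day 7, 117 for day 30 against day 7, 22 for day 30 against day 14 and 0 for day 30 against day 21. A fit to AL libraries alone gave differences from sham AL of 92 on any day, 116, 0, 0 and 123 on days 7, 14, 21 and 30, and 9 for day 14 against day 7. Without a filter on low values, counts against day 1 were 484, 191 and 252 on days 14, 21 and 30, with 11 for day 21 against day 14 and 21 for day 30 against day 21, and the differences from sham AL were 212, 12, 14 and 129. A pseudocount of 0.1 gave 9 for day 21 against day 14 and 7 for the day 14 difference from sham AL. Quantile normalization and limma-voom each gave 1 for day 21 against day 14 and 3 for the day 21 difference, and limma-voom 44 for the difference between days 14 and 7. Without the 3 libraries rich in short genes, day 21 and day 30 against day 7 gave 122 and 121, and the day 7 difference 98. The brain score as covariate gave 241 for day 7 against day 1, 19 for day 21 against day 1 and 114 for day 21 against day 7. The cause of these moves was not tested. Depth limits low genes: 1 FPKM over 1 kb is 15.5 to 23.8 fragments.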
